A study of Mus musculus with 2 samples.

Results

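The genes described here are 9 transcription factor genes of the early response to hormones: the nuclear receptors Nr4a1, Nr4a2 and Nr4a3, the Krüppel-like factors Klf4, Klf6, Klf7 and Klf9, and the zinc finger or nuclear factor genes Egr1 and Csrnp1. They were chosen by name from the 21887 protein-coding genes on the autosomes, X and Y, and every FOS peak was collected that named one of them as its nearest gene or as the gene it lies in. The rule gave 9 peaks at 8 of the 9 genes, out of 2374 peaks in all. The peaks come from 1 ChIP-seq library made with a FOS antibody. Its cells were granulosa cells, obtained by puncturing the follicles of wild-type mice 25 days old that had been primed with PMSG, a hormone preparation that makes follicles grow, and were taken 3 h after hCG, which stands in for the luteinizing hormone surge that triggers ovulation. The series has a second library from cells given the same treatment, with no antibody named in its label, which was not analysed here. There were no replicates and no cells without hCG, and read counts were not analysed here. The depth is therefore unknown, no value carries an error between animals, and no test was made. Expression was not measured, so the identity of the cells was not checked against marker genes.

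FOS pairs with JUN proteins to form AP-1, a transcription factor that binds a short palindromic DNA motif and, in some of its dimers, the related cAMP response element (CRE). The luteinizing hormone surge raises cAMP in granulosa cells and switches on a set of genes within minutes to hours without the need for new protein, FOS itself among them. The NR4A receptors are orphan nuclear receptors of this kind, known as regulators of steroid-producing genes. Krüppel-like factors bind GC-rich and CACCC sequences and several of them respond to growth and stress signals. EGR1 is a zinc finger factor that the surge is known to induce, and CSRNP1 is a nuclear protein first described as a target of AXIN1 signalling.

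The promoter sequences that the results turn on come from RefSeq (GRCm38.p6, the assembly that mm10 names), which held 300-base windows around 11 transcription start sites (TSSs) of 8 of the 9 genes. The stretches below are those upstream of the start site, read 5′ to 3′ on the strand of the gene. Capitals mark the AP-1 motif TGANTCA and the CRE core TGACG, which is 1 arm of the palindromic CRE, each searched on both strands, so that a core on the other strand reads CGTCA. The Csrnp1 stretch is the upstream part of a window that lies inside that gene's peak (chr9:119983024-119983236, minus strand, 213 bases), and is shown for its pair of AP-1 motifs.
Csrnp1: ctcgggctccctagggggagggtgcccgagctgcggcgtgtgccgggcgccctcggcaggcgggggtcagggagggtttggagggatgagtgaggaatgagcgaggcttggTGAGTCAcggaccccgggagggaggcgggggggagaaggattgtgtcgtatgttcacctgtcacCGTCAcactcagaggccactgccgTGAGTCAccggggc
The Nr4a1 stretch (chr15:101266596-101266845, plus strand) lies whole inside a peak, while those of Nr4a2 (chr2:57124004-57124253, minus strand) and Nr4a3 (chr4:48045055-48045304, plus strand) lie outside any peak. The 3 are shown together because each holds 4 CRE cores and no exact match to TGANTCA. They differ in the letters beside the cores. In Nr4a1 each core reads TGCGTCA, a string that differs from the AP-1 motif by a base, and no core in the other stretches does. Away from its cores, the Nr4a2 stretch also holds a string that differs from the motif by a base, TGGGTCA. Such strings therefore do not set the stretch in a peak apart from those outside. Near matches to the motif were not searched, and their share over all windows is unknown.
Nr4a1: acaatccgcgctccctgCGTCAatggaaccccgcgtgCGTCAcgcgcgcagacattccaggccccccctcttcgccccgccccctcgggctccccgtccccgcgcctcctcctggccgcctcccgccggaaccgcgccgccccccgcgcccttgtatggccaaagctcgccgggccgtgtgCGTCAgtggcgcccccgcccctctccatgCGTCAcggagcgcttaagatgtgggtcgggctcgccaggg
Nr4a2: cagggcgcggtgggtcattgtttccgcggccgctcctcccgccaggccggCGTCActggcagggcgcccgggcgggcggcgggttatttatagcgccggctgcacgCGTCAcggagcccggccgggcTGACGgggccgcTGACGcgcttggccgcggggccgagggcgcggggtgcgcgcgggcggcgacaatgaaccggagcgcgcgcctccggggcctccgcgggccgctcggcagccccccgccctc
Nr4a3: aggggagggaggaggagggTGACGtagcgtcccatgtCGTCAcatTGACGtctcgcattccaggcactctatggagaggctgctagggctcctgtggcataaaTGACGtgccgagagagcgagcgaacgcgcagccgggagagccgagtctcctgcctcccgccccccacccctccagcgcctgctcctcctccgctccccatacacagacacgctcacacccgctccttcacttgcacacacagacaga
The Klf9 stretch (chr19:23141107-23141225, plus strand, 119 bases) holds the other AP-1 motif found in these windows, and lies outside any peak.
Klf9: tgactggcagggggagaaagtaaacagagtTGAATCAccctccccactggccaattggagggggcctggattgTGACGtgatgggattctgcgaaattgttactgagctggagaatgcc

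All NR4A genes and all chosen Krüppel-like factor genes were named by at least 1 FOS peak, as was Csrnp1, while Egr1 was not. All but the Nr4a3 peak lay in the upper part of the list, at or above the median, by the score that the authors deposited for each peak, whose scale is not stated and which is read here as a rank alone. The members' scores ran from 49 to 160 with a median of 84, against a median of 67 over all peaks. Csrnp1 scored 160 and ranked 191 of 2374, Klf4 scored 110 (rank 479) and Nr4a1 scored 99 (rank 591). Nr4a2 followed with 94 (rank 671) and Klf9 with 84 (rank 822). Klf6 at 71 and the Klf7 peaks at 69 and 68 stood close together near the middle of the list, and neighbours this close cannot be ordered without a replicate. Nr4a3 had the lowest score, 49 (rank 1700), and 71.6% of all peaks scored higher. In width the members' peaks ran from 288 to 406 bp (median 345 bp, against 342 bp over all peaks).

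**Figure D1:**
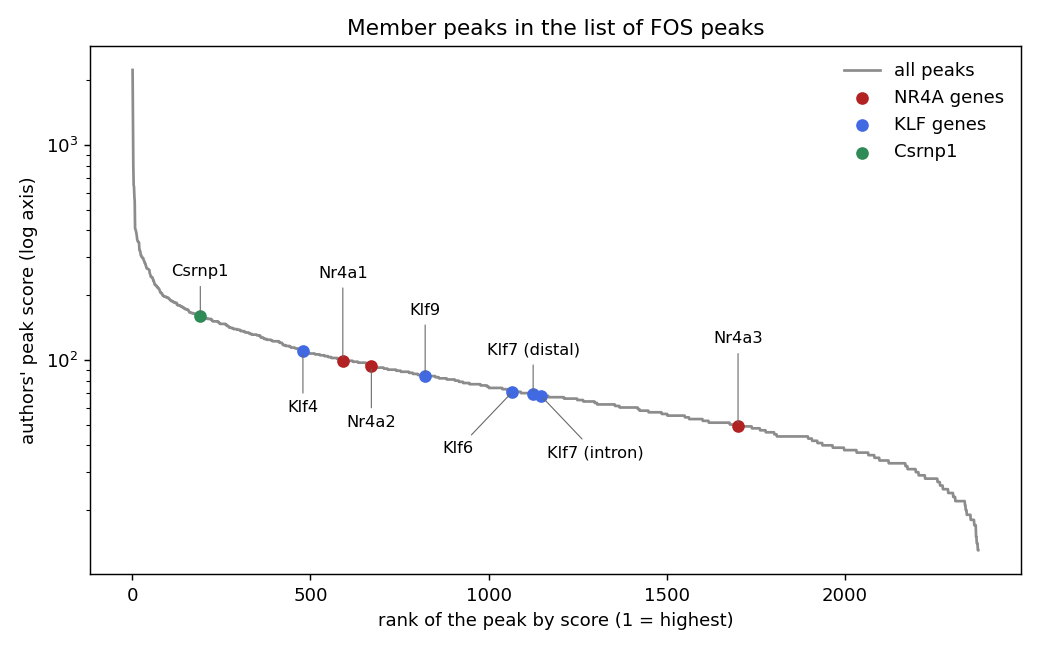
Authors' peak score (log axis) against the rank of each of the 2374 peaks (grey line), with the 9 peaks of the NR4A, KLF and Csrnp1 genes as coloured points. Csrnp1 lies highest at 160 and Nr4a3 lowest at 49; the other peaks lie between 68 and 110.

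As a background, 8.68% of all 21887 protein-coding genes were named by a peak as nearest or host gene, against 8 of these 9. Without host genes the count was also 8 of 9, against 7.58%. The genes were chosen with earlier results of these data known, so the count describes them and is not independent evidence. With peaks limited to those whose centre lies within 10 kb of the annotated TSS, 6 of 9 had a peak, against 3.85% of all genes: Nr4a1, Nr4a2, Klf4, Klf6, Klf9 and Csrnp1. Within 50 kb of the annotated TSS the count was 7 of 9, against 6.83%. With any peak within 50 kb of the gene counted, whichever gene it was given to, 7 of 9 had a peak against 18.2%, and within 100 kb 7 of 9 against 27.6%. Nr4a3 and Egr1 were the genes without one under both windows. A peak at or above the median score was found at 7 of 9, against 4.74% of all genes, with Nr4a3 the gene lost. A peak that scored 99 or more, the third quartile of all scores, was found at 3 of 9, namely Nr4a1, Klf4 and Csrnp1, against 2.54%. Nr4a1 stood exactly at this cut-off, a score that 28 peaks share. Counted by peak, 3 of the members' 9 reached it, and 618 of all 2374.

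**Figure D2:**
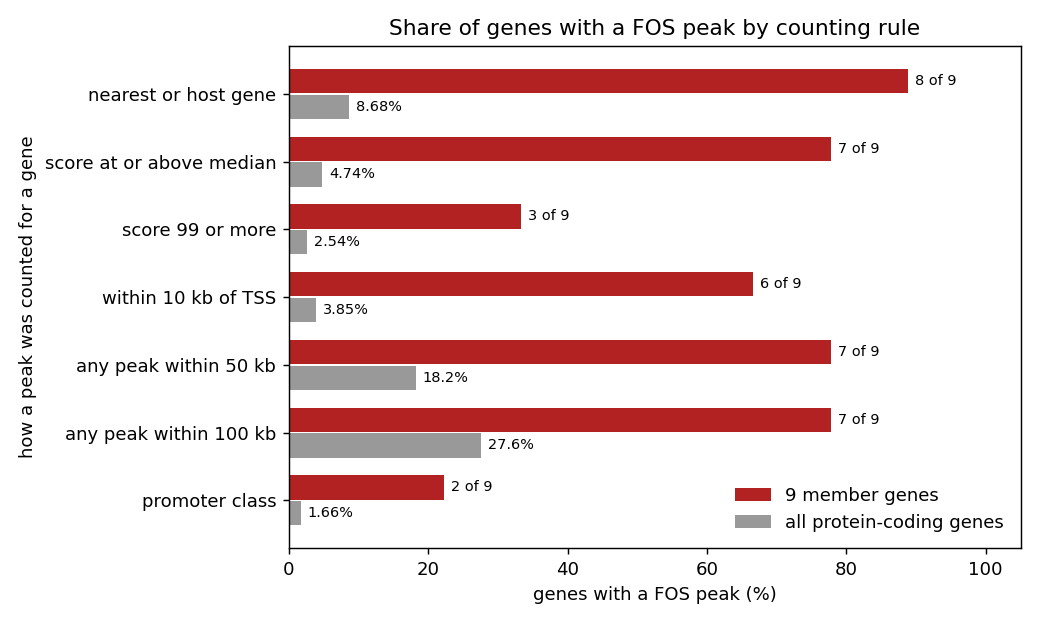
Percent of genes with a FOS peak under 7 ways of counting a peak for a gene, for the 9 chosen genes (red) and all 21887 protein-coding genes (grey). The chosen genes reach 8 of 9 by nearest or host gene against 8.68%, and 7 of 9 within 100 kb against 27.6%.

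The 3 NR4A genes differed in where their peak lay. Nr4a1, which encodes NUR77, had a peak in the promoter class with a score of 99, at chromosome 15, 101266556 to 101266961 (mm10), centred 88 bp upstream of the TSS. That peak covered all 300 bases of the RefSeq promoter window. The RefSeq span of the gene begins further upstream, at 101253902, so this TSS, at 101266846, and the peak lie inside the span. Nr4a2, which encodes NURR1, had a peak of score 94 at chromosome 2, 57116739 to 57117085, in intron 1 of 7. The deposited annotation placed it 1874 bp upstream of an inner start site of the gene, and it lay 7.09 kb downstream of the outer start at 57124003 whose promoter is printed above. Nr4a3, which encodes NOR1, had an intergenic peak of score 49 at chromosome 4, 47936430 to 47936746, which lay 108.7 kb upstream of the TSS.

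Few other peaks lay around the NR4A genes. Near Nr4a1 a further peak of score 17, in intron 1 of 8 of the activin receptor gene Acvr1b, was given to Mir6962. This peak lay 62.0 kb from the gene span and 75.1 kb upstream of the TSS used above. It was the next peak to the one at the Nr4a1 promoter, with a gap of 74.6 kb between them. The next peak to the one in Nr4a2 was 1429 kb away, and the next to the one upstream of Nr4a3 was 625.2 kb away. Over all peaks the median gap to the next peak was 145.4 kb.

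The NR4A promoters shared a run of CRE cores whether or not a peak lay on them. In Nr4a1 the cores began 233, 213, 69 and 40 bases upstream of the TSS, and all 4 lay inside the peak. The match nearest the peak's centre was 20.5 bp from it. In Nr4a2 they began 200, 144, 123 and 111 bases upstream, and in Nr4a3 231, 213, 205 and 147 bases upstream. Of all 32851 promoter windows, 20.8% held at least 1 core and 76 (0.231%) held 4 or more. The core contains a CpG and these windows are rich in G and C (72.3% in Nr4a1, 81.7% in Nr4a2 and 64.7% in Nr4a3, against a median of 52.7%). Among the 9690 windows with at least 60% G and C, 0.557% held 4 or more, and among the 8701 windows with at least 20 CpG, 0.770%. These sets have a minimum content and are not matched to the NR4A windows, which held 35 CpG in Nr4a1, 52 in Nr4a2 and 26 in Nr4a3. The cut-off of 4 cores equals the count in these same windows, so the shares are a description. The full CRE, TGACGTCA, which contains the core on both strands, was in none of the 11 windows of these genes and in 1.79% of all windows. No window of the 8 genes matched AAAGGTCA, the NBRE that NR4A receptors bind as monomers (1.51% of all windows). Nor did any match CCWWWWWWGG, where W is A or T, the CArG box of the serum response element (1.63%). Only exact strings were counted, so near matches to any of these motifs remain unsearched. A match is a string of letters and does not show binding.

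**Figure D3:**
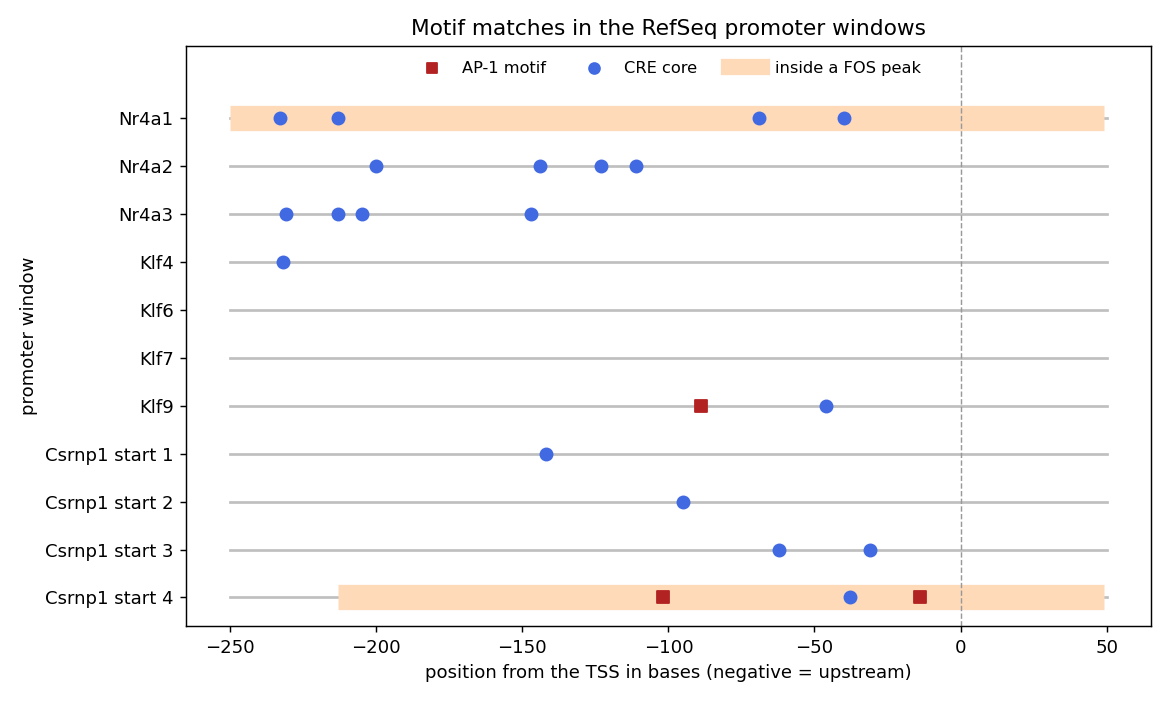
Positions of the AP-1 motif (red squares) and the CRE core (blue circles) in the 11 promoter windows of 8 genes, in bases from the TSS; shading marks bases inside a FOS peak. Each NR4A window holds 4 cores, only the Nr4a1 window among them lies in a peak, and the 2 AP-1 motifs of the fourth Csrnp1 start lie in its peak.

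Csrnp1 had the highest score of these genes, 160. Its peak at chromosome 9, 119982879 to 119983236, was annotated to intron 1 of 4, 1601 bp downstream of the TSS used by the authors. RefSeq lists 4 start sites for the gene. The peak's centre lay 34.5 bp upstream of the innermost of them, at 119983023, and the peak covered 263 of the 300 bases of that window. The AP-1 motifs in this window began 102 and 14 bases upstream of the start, 64.5 and 23.5 bp from the peak's centre, and a CRE core lay 1.5 bp from the centre. Both AP-1 motifs read TGAGTCA, the reverse complement of TGACTCA. At least 1 TGANTCA was in 7.81% of all promoter windows, and 2 or more were in 151 windows (0.460%). The 3 outer start sites of Csrnp1 had no AP-1 motif and no base in a peak. A further peak of score 60 lay 27.0 kb upstream of the outermost start at 120011576 to 120011888 and was given to Xirp1, an actin-binding protein gene of muscle.

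Klf4 was the Krüppel-like factor gene with a promoter-class peak. KLF4 restrains proliferation in epithelia and is one of the reprogramming factors. The peak, of score 110, lay at chromosome 4, 55532851 to 55533158, centred 529 bp upstream of the TSS. It ended short of the RefSeq window by 125 bases, so the letters of that window do not describe the peak. The window held a CRE core 232 bases upstream of the TSS, 4 GC boxes (GGGCGG, on either strand; 35.7% of all windows held at least 1) and no AP-1 motif. The next peak was 552.7 kb away, in intron 1 of 12 of Zfp462.

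Klf9 encodes a factor known to respond to glucocorticoid and progesterone signals. Its peak of score 84 was intergenic, at chromosome 19, 23134949 to 23135283, and lay 6.11 kb upstream of the TSS. The AP-1 motif in its promoter window, TGAATCA, began 89 bases upstream of the TSS, and lay outside the peak. The next peak was 1031 kb away.

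Klf6, a factor induced by injury and growth signals in many tissues, had a peak of middling score in the gene and stronger ones upstream that were given to another gene. The peak named for Klf6 lay in intron 1 of 3 at chromosome 13, 5863476 to 5863842, scored 71 and was centred 2.17 kb downstream of the TSS. Upstream of the gene lay 3 intergenic peaks. They scored 171 at 5845055 to 5845439, 224 at 5837398 to 5837777 and 76 at 5803448 to 5803896, and their centres were 16.2, 23.9 and 57.8 kb upstream of the Klf6 TSS. The peak of score 224 ranked 63 of 2374, above every peak that the rule gave for these genes. The deposited annotation gave all 3 to 1700016G22Rik, a long noncoding RNA gene at 5855509 to 5858092 that ends 3.40 kb before Klf6 begins. The nearest other protein-coding genes were Akr1e1, 1252 kb away on the upstream side, and Pitrm1, 677.7 kb away on the other. When each peak was given to the protein-coding gene with the smallest gap, an assignment chosen after the data were seen, Klf6 took all 4 peaks and the 9 genes had 12 peaks between them (8 of 9 genes with a peak, against 8.86% of all genes). No chromatin contacts were measured, so which gene these peaks act on was not tested.

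**Figure D4:**
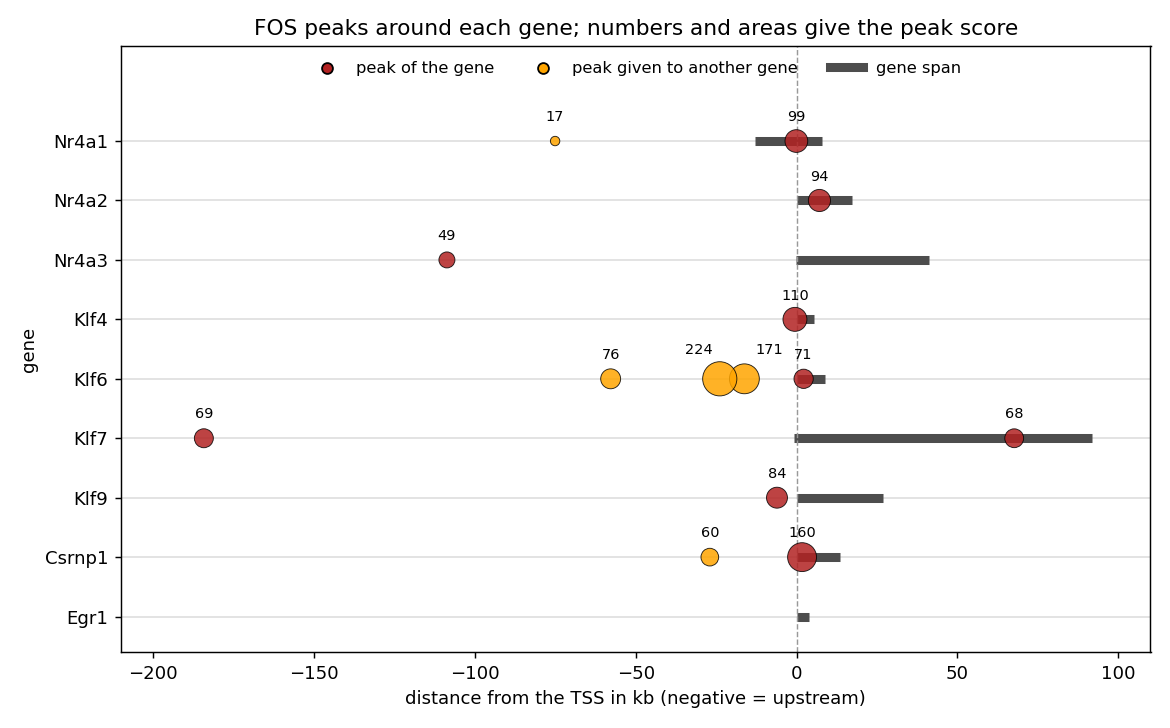
FOS peaks within 200 kb of the TSS of each gene, oriented so that upstream is negative; red circles are peaks named for the gene or lying in it, orange circles are peaks given to another gene, circle areas and numbers give the peak score, and grey bars the gene span (for Egr1, placed from its lower coordinate). The stronger upstream peaks at Klf6, 171 and 224, are orange, and the Egr1 row holds no peak.

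Klf7, which is known for its role in neuron development, had 2 peaks, both far from its start. One of score 68 lay at chromosome 1, 64053586 to 64053930, in intron 2 of 3 and 67.6 kb downstream of the Klf7 TSS. It counts for Klf7 as its host gene, since the nearest TSS was that of Mir6899, 11.3 kb away. The other, of score 69, was intergenic at 64305521 to 64305808 and lay 184.3 kb upstream. A further intergenic peak, of score 88 at 63850162 to 63850519, lay 178.9 kb from the gene on its downstream side. It was given to 4933402D24Rik. Neither the promoter window of Klf7 nor that of Klf6 held an AP-1 motif or a CRE core.

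Egr1 was the exception among these genes. No peak named it, and the nearest on chromosome 18 was 615.1 kb from the gene, at 34245803 to 34246132, with a score of 98, in intron 1 of 15 of Apc and given to Gm10548. Its promoter sequence was not analysed here. Without read counts, the signal at Egr1 below the authors' threshold is unknown, so the list shows only that no peak was called there.

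Over the 9 peaks, 2 were in the promoter class (22.2%, against 15.2% of all peaks), which gave 2 of 9 genes a promoter peak against 1.66% of all genes. Another 4 were intronic (44.4% against 44.7%) and 3 were intergenic (33.3% against 35.4%). First introns held 3 of the 9 peaks, at Csrnp1, Nr4a2 and Klf6 (33.3%, against 18.3% of all peaks). The median distance to the annotated TSS was 2.17 kb, against 18.2 kb over all peaks, and 6 of 9 lay within 10 kb against 38.3% of all peaks. With so few peaks these shares are a description.

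Relatives of these genes were looked up in the same way. None of 22 other Krüppel-like and SP family genes was the nearest or host gene of a peak, where 8.68% of all genes were. So short a list can hold none at that share, and the KLF genes above were chosen with their peaks known, so no difference between them is read from this count. The gap from these 22 genes to the nearest peak had a median of 223.0 kb. Sp3, a GC-box factor, came closest, with a peak of score 101 lying 33.6 kb away that was given to its antisense gene Sp3os. It was the 1 gene of the 22 with any peak within 50 kb, against 18.2% of all genes. None of 7 genes of the EGR, NAB and CSRNP families was named either (8.68% of all genes), and 3 of them had a peak given to a neighbour within 50 kb (18.2% of all genes had any peak within 50 kb). Egr2 lay 7.34 kb from a promoter peak of Ado (score 38), Nab2, an EGR corepressor gene, 8.23 kb from a peak given to Tmem194 (score 33), and Egr3 13.4 kb from a peak given to Bin3 (score 54).

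Among RXR partners of the NR4A receptors and other orphan nuclear receptors, 4 of 23 genes had a peak, against 8.68% of all genes. The count was 5 of 23 for any peak within 50 kb, against 18.2% of all genes. The heme receptor gene Nr1d1 had a promoter peak of score 221. Nr5a1, which encodes the steroidogenic factor SF1, had intergenic peaks of score 76 and 61, 3.09 kb upstream and 24.4 kb downstream of its TSS. The peak of score 76 also lay 5.58 kb from Nr6a1, a gene of the same list that no peak named. The best of 4 peaks given to Nr5a2, which encodes LRH1, scored 81 and was intergenic, 278.2 kb upstream of its TSS. The closest of the 4 to that TSS, of score 29, lay 86.8 kb downstream of it. Nr1d2 had a peak of score 28. None of the RXR genes was named. Among SRF, CREB and MEF2 factors and their coactivators, which act upstream of many early-response genes, 4 of 16 were named, against 8.68% of all genes. Any peak within 50 kb was found for 5 of 16, against 18.2% of all genes. Atf1 had a promoter peak of score 90, Mef2d a peak of score 87 lying 14.1 kb upstream, Crtc3 a promoter peak of score 78, and Creb1 held a peak of score 24 in its last exon that was given to Mettl21a.

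Other early-response genes outside the AP-1 family were named in 12 of 29 cases, against 8.68% of all genes. The best scores were 234 at Id3, an inhibitor of basic helix-loop-helix factors, 26.6 kb upstream, and 219 at Zfp36l2, an mRNA decay factor gene, 38.9 kb downstream. Gadd45g, a stress sensor gene, and Sik1, a kinase gene induced by cAMP, both had a best score of 109. With any peak within 50 kb counted, 19 of 29 had one against 18.2% of all genes. Of the 18 peaks at these 12 genes, the promoter peak of Trib1 (score 78) was the 1 peak in the promoter class.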

How the data were processed

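FOS ChIP-seq peaks of 1 library were analysed. The submitters' processing notes name the mm10 build and the tools deepTools 3.5.1, MACS2 2.2.7.1, BWA and Trim Galore, with no roles. Per the file headers, the authors annotated a narrowPeak file with annotatePeaks of HOMER. Not given in the sources used here are the threshold for calling peaks, the control, the filters and the scale of the score. The score that the authors deposited was used to describe and rank peaks within this list; equal scores share the best rank. The other deposited values are coordinates and signed distances in bp between peak centre and nearest TSS.

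RefSeq (GRCm38.p6) gave a match for all 1965 deposited names, by accession, symbol or older symbol. Its table holds the 21887 protein-coding genes of the background. Gaps run from peak edge to gene span. Motifs were searched on both strands of 32851 RefSeq promoter windows (250 bases before to 50 from the TSS on). Peak sequences outside these windows, and so most of the members' peaks, were not analysed here for motifs. The motif search and gaps were tested on simulated data. Python 3.11.15 with numpy 2.4.6 and pandas 2.3.3 was used.

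The 9 genes and all 5 gene lists were chosen with earlier results of these data known. Every peak of the 9 genes is named, and up to 4 covered genes with the highest score of each list. Egr2, Egr3, Nab2, Sp3, Nr6a1, Trib1, 1700016G22Rik and the windows by G and C or CpG content were chosen after their values were seen. No genes are named for a like pattern, since 1 library gives none.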

Additional observations from a re-analysis of the deposited data

How the results depend on the processing

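The number of these genes with a peak was 8 by nearest gene name alone and 7 when peaks below the median score were left out, when peaks were limited to those within 50 kb of the annotated TSS, or when any peak within 50 or 100 kb of the gene span was counted. With scores of 99 or more alone, 3 genes and 3 peaks were left. The median score of 84 became 89 by nearest gene name, 89 at or above the median score, 89 by nearest protein-coding gene (added after seeing the data), 110 with scores of 99 or more, 96.5 within 10 kb of the annotated TSS and 94 within 50 kb of it. The number of promoter peaks was 2 in the authors' class and within 1 kb of the annotated TSS, and 4 within 2 kb, where Csrnp1 and Nr4a2 were added. By construction these settings can count other peaks. The promoter peaks in the authors' class and within 1 kb were the same 2, at Nr4a1 and Klf4. With TGACTCA alone as the AP-1 motif, 1 gene (Csrnp1) held it in a promoter window instead of 2. The annotated TSS is that of the nearest gene, so the Klf7 intronic peak counts as within 50 kb through Mir6899. No paired analysis was possible because a single library was analysed, and for the same reason no replicate could be left out. The depth is unknown, and a gene without a peak may hold signal below the authors' threshold.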

Other observations

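Promoter windows that lie in FOS peaks differed in their letters from promoter windows at large. Of the 266 windows with at least 150 of their 300 bases in a peak, 97 (36.5%) held the AP-1 motif TGANTCA, against 7.81% of all 32851 windows, and 137 (51.5%) held the CRE core TGACG, against 20.8%. The full CRE was in 9.40% of the 266 windows against 1.79%, while the NBRE AAAGGTCA was in 4 of them (1.5%) against 1.51%. The innermost Csrnp1 window is among the 97 with an AP-1 motif, and the Nr4a1 window is among those with no exact match to it. Windows with 4 or more cores, as at Nr4a1, were 5 of the 266 (1.88%). The 266 windows were also richer in G and C (median 59.7% against 52.7%), and its part in these shares was not tested.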
